A study of Mus musculus with 2 samples.

Results

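Haemoglobin-rich barcodes of the mouse dentate gyrus, taken here as red cells and reticulocytes, were selected on their globin transcripts. A barcode belonged to the group if it held at least 1000 unique molecular identifiers (UMIs, the tags that count single captured RNA molecules), if Hba-a1, Hba-a2, Hbb-bs and Hbb-bt together made up at least 30% of them, and if each of 4 marker pairs had at most 2 UMIs. The pairs were P2ry12 with Cx3cr1 (microglia), Cldn5 with Flt1 (endothelium), Aqp4 with Gjb6 (astroglia) and Dcx with Eomes (neuronal lineage). The rule found 1153 cells, which is 6.08% of the 18974 barcodes with at least 1000 UMIs. Library 1 held 789 of them among 9441 barcodes (8.36%, exact 95% interval 7.81 to 8.93) and library 2 held 364 among 9533 (3.82%, 3.44 to 4.22). These shares describe the cells that went into the droplets, after the mice had been perfused with saline.

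The tissue came from mice at postnatal day 30, with 4 mice for each of 2 genotypes and 1 pooled library per genotype. Controls were Phf2+/+ and conditional knockouts (cKO) were Phf2flox/flox. Both carried the Nestin-Cre transgene of the strain B6.Cg-Tg(Nes-cre)1Kln/J, which drives Cre in the neural lineage, so the deletion is aimed at neural cells and not at blood. No label, header or barcode name says which library is which genotype, so the libraries are called 1 and 2 throughout and the genotypes are not compared.

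Erythroid precursors in the marrow make haemoglobin from α-globin and β-globin chains and haem, whose synthesis begins in the mitochondrion with the erythroid enzyme Alas2 and ends there with Fech, which inserts iron. They then expel the nucleus and become reticulocytes, which enter the blood, go on translating the RNA they still hold, and clear their mitochondria and ribosomes by autophagy and ubiquitin-dependent breakdown. Mature red cells carry little RNA, most of it globin.

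The regions before the start sites of the genes that mark the group are shown because their products fill these cells and because the 2 β-globin genes take different shares from cell to cell (below). Each is the 250 bases before the RefSeq start, 5′ to 3′ on the gene's strand, in GRCm38.p6. Hba-a1 lies on the plus strand at chr11:32283422-32283671, Hbb-bs and Hbb-bt on the minus strand at chr7:103827929-103828178 and chr7:103813924-103814173, and Alas2 on the plus strand at chrX:150547167-150547416. Capitals mark 4 short motifs on either strand: AGATAA (a form of the GATA site), the motif CACCC, the CCAAT box and the TATA-like TATAA. Other forms of the GATA site, such as TGATAA in the Hba-a1 window, were not searched for and stay in lower case.
Hba-a1: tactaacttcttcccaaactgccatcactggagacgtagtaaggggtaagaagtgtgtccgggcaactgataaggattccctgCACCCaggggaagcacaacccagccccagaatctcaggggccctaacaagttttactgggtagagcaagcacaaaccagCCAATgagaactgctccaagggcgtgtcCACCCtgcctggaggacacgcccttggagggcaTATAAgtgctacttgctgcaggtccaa
Hbb-bs: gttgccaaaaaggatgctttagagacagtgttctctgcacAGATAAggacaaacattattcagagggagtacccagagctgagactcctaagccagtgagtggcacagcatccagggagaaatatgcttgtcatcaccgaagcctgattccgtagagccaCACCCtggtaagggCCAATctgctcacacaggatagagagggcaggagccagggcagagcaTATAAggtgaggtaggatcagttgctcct
Hbb-bt: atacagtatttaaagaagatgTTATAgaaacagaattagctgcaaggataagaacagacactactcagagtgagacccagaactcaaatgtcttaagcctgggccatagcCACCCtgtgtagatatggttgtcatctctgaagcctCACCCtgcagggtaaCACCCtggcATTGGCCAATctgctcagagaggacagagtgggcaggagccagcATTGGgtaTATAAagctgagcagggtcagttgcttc
Alas2: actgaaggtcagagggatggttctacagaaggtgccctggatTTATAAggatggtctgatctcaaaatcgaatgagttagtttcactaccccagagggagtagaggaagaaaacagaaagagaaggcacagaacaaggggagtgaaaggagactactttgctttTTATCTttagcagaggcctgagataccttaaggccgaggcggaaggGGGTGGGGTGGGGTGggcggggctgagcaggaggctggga

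Hba-a1 had CACCC at -167 and -60, CCAAT at -88 and TATAA at -27, counted back from the start. Hbb-bs had AGATAA at -210, CACCC at -90, CCAAT at -76 and TATAA at -29. Hbb-bt had CACCC 3 times, at -140, -104 and -89, CCAAT on the gene's strand at -75 and on the other strand at -80 and -36, and TATAA at -28 and, on the other strand, at -229, with no AGATAA in this window. Alas2 had AGATAA at -86 and CACCC at -40, -35 and -30, all on the other strand, and TATAA at -207, overlapping a match on the other strand at -208. Of 32851 promoter windows of this length, 9.99% held AGATAA, 52.01% CACCC, 33.8% CCAAT and 22.8% TATAA, so single matches of the 3 shorter motifs are common. The windows of Hbb-bs and Hbb-bt were identical at 185 of 261 aligned positions (70.9%). Those of Hba-a1 and Hba-a2 were identical at 247 of 253 (97.6%).

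A cell held a median of 6970 UMIs in library 1 (lowest 1000, highest 28591) and 6975 in library 2 (1025 to 28026). These UMIs came from few genes: the median was 118 genes per cell in library 1 (41 to 3257) and 144 in library 2 (46 to 4031). In other cells of the same libraries, meaning barcodes with at least 1000 UMIs and 500 genes, at most 20% mitochondrial UMIs and under 30% globin, the medians were 2826 and 2624 genes. Globin took a median of 95.99% of a cell's UMIs in library 1 and 94.4% in library 2, and it reached 90% in 676 and 252 cells. The rule set the floor of this range. Just inside it stood cells with 30.9% and 32.001% in library 1 and 34.2% in library 2, and just outside it cells with 21.9%, 22.8% and 29.7% in library 1. In the plot of globin share against depth the group forms a band near the top, with few barcodes between it and the cells with almost no globin.

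**Figure D1:**
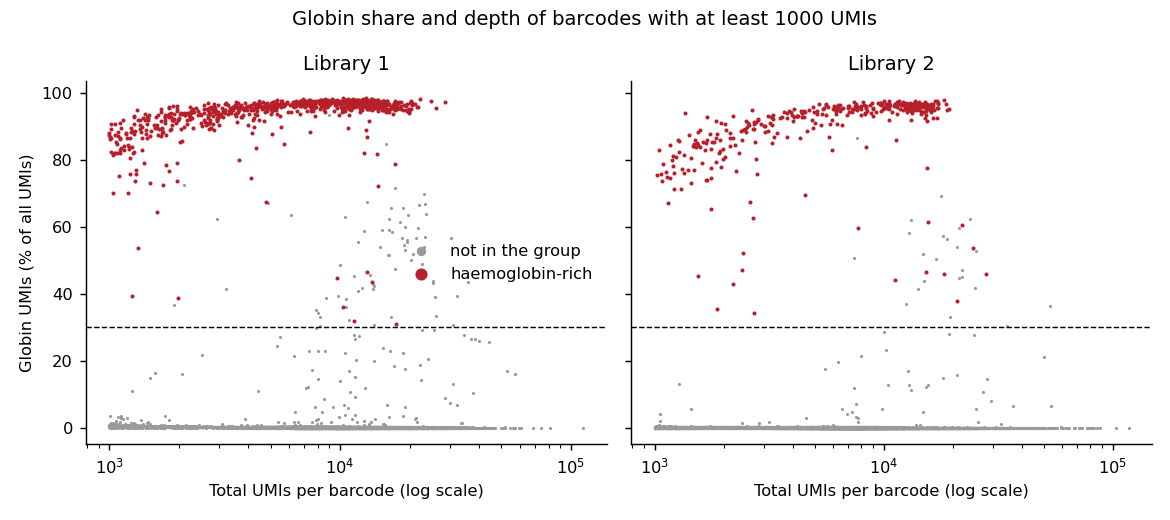
Globin share of UMIs (%) against total UMIs (log scale) for every barcode with at least 1000 UMIs, by library. Red points are the 789 and 364 haemoglobin-rich cells, grey points all others, and the dashed line is the 30% threshold; 71 and 23 grey barcodes lie above it because they passed a marker limit.

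The label was checked against its markers. Alas2, given with the rule beside Hba-a1 and Hbb-bs, had a UMI in 79.8% of the cells of library 1 and 81.6% of library 2. Thinned to 1000 UMIs per cell, which left out no cell, these shares were 44.6% and 45.3%. In microglia-marked barcodes, which should lack it, Alas2 had a UMI in 0.921% of 3257 and 0.256% of 2731 barcodes (median depths 7958 and 7089 UMIs), and in 0.246% and 0.0366% after thinning. Of the other erythroid markers, Slc4a1, Hemgn, Epb42, Bpgm and Slc25a37 were found at levels given below, Klf1 had 1 UMI in each library and Gata1 had none. Ahsp was not found among the gene symbols. At full depth Bpgm had a UMI in 60.2% and 55.5% of cells, but Slc4a1 in only 9.25% and 9.34%. Thinned to 1000 UMIs, Bpgm had a UMI in 33.2% and 28.8% of cells. In microglia-marked barcodes it had a UMI in 8.11% and 7.91% at full depth, and in 1.01% and 1.32% after thinning. Alas2 and Bpgm thus go with the label in most cells at full depth only, while Slc4a1 was seen in few.

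The group was not free of other cells. Of the 1153 cells, 14 in library 1 and 18 in library 2 held 500 genes or more, and they carried 21.4% and 40.3% of the group's non-globin UMIs. In these cells the median globin share was 57.1% and 50.4%, and Malat1, a nuclear RNA, reached medians of 263 and 151.5 UMIs. In addition, 71 and 23 barcodes with at least 30% globin were left out because they passed a marker limit. Single cells carried most UMIs of some marker lists. One cell of library 1 held 541 of the 602 UMIs of the mural list and another 85 of the 89 of the B cell list, while 3 cells of library 2 held 1982 of the 2294 of the oligodendrocyte list and 1 cell 92 of the 94 of the fibroblast list. Results are therefore also given for the 775 and 346 cells under 500 genes. This cut does not set aside every cell with such transcripts. Of the 59 and 46 cells with 10 or more UMIs of any cell type list, only 12 and 14 held 500 genes or more. No barcode sequence of the group occurred in both libraries. Only 28 did among all barcodes with at least 1000 UMIs, so a group of this size would be likely to share none. The count thus says nothing particular about the group.

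The libraries held 102897659 and 107266420 UMIs. Barcodes with fewer than 100 UMIs, which give the RNA that floats free in the suspension, summed to 5037003 and 2955544 UMIs. Globin made up 4.96% of this free RNA in library 1 and 2.64% in library 2, and 0.278% and 0.103% of the UMIs of other cells, so both globin in other cells and free globin were higher in the library with more haemoglobin-rich cells. With 1 library per genotype this difference between the libraries has no test.

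Globin transcripts were described first, with no test, because the rule used them. Over all cells of the group, Hbb-bs (ENSMUSG00000052305) took 47.2% of UMIs in library 1 and 44.98% in library 2, Hba-a1 (ENSMUSG00000069919) 21.99% and 22.7%, Hba-a2 (ENSMUSG00000069917) 17.7% and 16.3%, and Hbb-bt (ENSMUSG00000073940) 8.19% and 7.81%. The α-globins made up 41.7% and 42.5% of globin UMIs. Hba-a1 took 55.4% of α-globin UMIs in library 1 and 58.2% in library 2, and Hbb-bt took 14.8% of β-globin UMIs in both. The 2 β shares agreed to the third digit, while the 2 α shares did not. The annotated transcripts of Hba-a1 and Hba-a2 differed by 1 mismatch in the stretch both share, so the split between these 2 genes is uncertain. Those of Hbb-bs and Hbb-bt differed at 39 positions, besides gaps.

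Other globins were nearly absent with 1 exception. The θ-globin genes Hbq1a and Hbq1b, which lie beside the adult α genes on chromosome 11, gave 223 and 73 UMIs (Hbq1a) and 55 and 26 UMIs (Hbq1b) in libraries 1 and 2. Free RNA held 10 and 0 UMIs of Hbq1a and 0 and 1 of Hbq1b. The embryonic genes Hba-x, Hbb-y, Hbb-bh1 and Hbb-bh2 had no UMI in the group. The group's transcripts are thus those of the adult loci plus a low level of θ-globin.

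For the transcripts outside the rule, counts were summed per library over the group, over free RNA and over other cells, leaving out the 12 genes of the rule, and given per 1000000 of the remaining UMIs (CPM). edgeR's quasi-likelihood test with the library as a block compared the group with free RNA over 10673 genes and with other cells over 16722 genes, and p-values are 2-sided and Benjamini-Hochberg adjusted. Against free RNA, 213 genes were higher (2.0% of those tested) and 48 lower (0.450%). Against other cells, 267 were higher (1.60%) and 199 lower (1.19%). Of the 213 genes, 209 were also higher than other cells, which is 98.1% of that list and 78.3% of the 267. Because the cells were picked by their globin, these tests show which transcripts go with it. The p-values rest on how far each difference varied between 2 libraries, not between mice.

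The number of higher calls was similar under both scalings, and the number of lower calls was not. With total counts in place of TMM scaling the numbers were 222 higher and 680 lower against free RNA, and 240 and 2470 against other cells, as the median log2 difference of all genes went from -0.13 to -0.68 and from -0.46 to -1.27. The lower calls are therefore given as values beside this shift. Leaving out the cells with 500 genes or more gave 373 higher and 76 lower genes against free RNA.

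Haem synthesis was represented at both ends of the pathway. Of 13 genes tested, 5 were higher than free RNA and none lower, with a median log2 difference of 0.90 beside -0.13 for all genes. Alas2 (ENSMUSG00000025270, chromosome X, 150547375 to 150570638 on the plus strand) stood at 16442 CPM in library 1 and 8381 CPM in library 2, against 44.4 and 18.5 CPM in free RNA and 2.80 and 1.51 CPM in other cells. Every library of the group lay above every sum of the others, and the log2 difference from free RNA was 9.22 ± 0.49 (SE; edgeR adjusted p 4.09e-05). Fech, the enzyme that closes the pathway, stood at 2321 and 1654 CPM against 33.1 and 23.3 CPM (log2 difference 6.68 ± 0.40, edgeR adjusted p 4.09e-05). Fam210b, a mitochondrial membrane protein of erythroid iron use, stood at 471 and 223 CPM against 17.6 and 17.1 CPM (4.81 ± 0.44).

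The enzymes between them were low. Urod passed with 65.9 and 71.4 CPM against 24.5 and 27.5 CPM in free RNA (edgeR adjusted p 0.0274), but not with total counts as the scaling or with no UMI of any marker pair allowed. Alad, Uros, Cpox and Ppox had 1 to 9 UMIs per library and did not pass, nor did the transporters Slc25a38, Abcb10 and Tmem14c. Alas1, the form of the first enzyme that other tissues use, stood at 13.2 and 8.40 CPM against 55.1 and 47.4 CPM in free RNA and did not pass (edgeR adjusted p 0.207). The first and the last enzyme were thus the abundant ones among the transcripts that remain.

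Among iron genes, 4 of 11 tested were higher than free RNA and none lower. Ftl1, the ferritin light chain that stores iron, stood at 24133 and 12571 CPM against 1871 and 1827 CPM (log2 difference 3.78 ± 0.47, edgeR adjusted p 0.00196). Slc25a37, the mitoferrin that brings iron into erythroid mitochondria, stood at 2162 and 1457 CPM against 35.4 and 17.4 CPM (6.69 ± 0.39). Glrx5, needed for iron-sulphur clusters, stood at 1684 and 1020 CPM (4.92 ± 0.40), and Ncoa4, the receptor that sends ferritin to autophagy, at 1042 and 647 CPM (4.82 ± 0.41). Tfrc, the transferrin receptor, which was chosen after its values were seen, had 10 and 6 UMIs in the whole group (33.0 and 25.2 CPM, against 84.6 and 88.1 CPM in free RNA, edgeR adjusted p 0.361). The iron genes Slc25a28, Ireb2, Hmox1 and Steap3, also named after their values were seen, had 0 to 7 UMIs per library.

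The red cell membrane list had 9 of 16 tested genes higher and 1 lower. Slc4a1, the band 3 anion exchanger, stood at 448 and 374 CPM with 7 and 0 UMIs in free RNA. Epb41, the cytoskeletal protein 4.1, stood at 2822 and 1617 CPM against 36.6 and 37.6 CPM (log2 difference 6.39 ± 0.47, edgeR adjusted p 8.62e-05). Epb42, protein 4.2, had 13 and 5 UMIs against 3 and 0 in free RNA, and Tmcc2 stood at 95.6 and 168 CPM against 27.8 and 23.3 CPM (edgeR adjusted p 0.00158). The lower gene was Slc2a1, the glucose transporter GLUT1, at 75.8 and 37.8 CPM against 356 and 252 CPM (log2 difference -1.88, edgeR adjusted p 0.0333), which is also a transcript of brain endothelium and was chosen after its values were seen. In cells under 500 genes, 8 of 15 tested were higher and none lower.

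Genes of organelle clearance and ubiquitin turnover were the list with the most calls, 12 of 15 tested higher and none lower. Mkrn1, a ubiquitin ligase, stood at 15038 and 9766 CPM against 99.0 and 90.9 CPM (log2 difference 7.54 ± 0.49, edgeR adjusted p 5.23e-05). The ubiquitin-conjugating enzymes Ube2l6 and Ube2o stood at 5479 and 3481 CPM and at 956 and 550 CPM (log2 differences 8.35 ± 0.44 and 5.77 ± 0.40). Isg20, an exonuclease, stood at 3956 and 1743 CPM, and Trim10, a ligase of late erythroid cells, at 247 and 92.4 CPM against 0.838 and 0.348 CPM. The other 7 higher genes, outside the naming rule, were Bnip3l, Bcl2l1, Ubb, Gabarapl2, Map1lc3b, Ube2h and Rnf10, among them the mitophagy receptor (Bnip3l) and members of the autophagosome-coating family (Gabarapl2, Map1lc3b). In cells under 500 genes 12 of 15 were higher as well.

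Red cell metabolism and redox defence had 11 of 13 tested genes higher and none lower. Bpgm, which makes the 2,3-bisphosphoglycerate that lowers the oxygen affinity of haemoglobin, stood at 20082 and 10585 CPM against 100.1 and 72.4 CPM (log2 difference 7.96 ± 0.50, edgeR adjusted p 4.71e-05). Gpx1, a peroxidase, stood at 7911 and 6105 CPM against 299 and 273 CPM (5.14 ± 0.41). Tent5c, a poly(A) polymerase, stood at 3306 and 1793 CPM against 34.97 and 22.3 CPM (6.99 ± 0.42).

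The regulators of erythroid transcription stood apart from these lists, with 2 of 12 tested higher and none lower, and a median log2 difference of -0.59. E2f2 stood at 82.4 and 46.2 CPM against 2.30 and 2.09 CPM (5.44 ± 0.55), and Hemgn at 59.3 and 67.2 CPM with 6 and 0 UMIs in free RNA. Gata1 and Gfi1b had no UMI, and Klf1, Tal1, Nfe2 and Epor had between 0 and 5 UMIs per library. Gata1 and Gfi1b, factors of erythroid transcription, were thus not detected at this depth. A count of 0 leaves a low level possible.

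Outside the lists, 132 genes were higher than both free RNA and other cells, higher in each library, and had at least 50 UMIs in the group. The 12 with the largest difference from free RNA included Tspo2, a transporter-like protein of erythroid cells (475 and 260 CPM against 1.68 and 1.39 CPM), Fam220a (887 and 416 CPM against 2.72 and 1.39 CPM) and Isca1, an iron-sulphur assembly factor (2637 and 1314 CPM against 34.5 and 27.9 CPM). Rsad2 (1912 and 983 CPM against 8.38 and 6.27 CPM) and Isg15 (669 and 269 CPM against 7.54 and 9.75 CPM) are best known as interferon-induced genes. Gda, the guanine deaminase, stood at 1081 and 558 CPM, Rec114 at 1022 and 668 CPM, AI662270 at 590 and 269 CPM, and Cdr2 at 521 and 340 CPM. Apol11b and Dhrs11 (191 CPM each in library 1, 71.4 and 109 CPM in library 2) and Gm10371 (152 and 71.4 CPM) completed them. All 12 log2 differences lay between 6.23 (Isg15) and 8.87 (Fam220a), with edgeR adjusted p from 4.09e-05 to 0.000251.

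**Figure D2:**
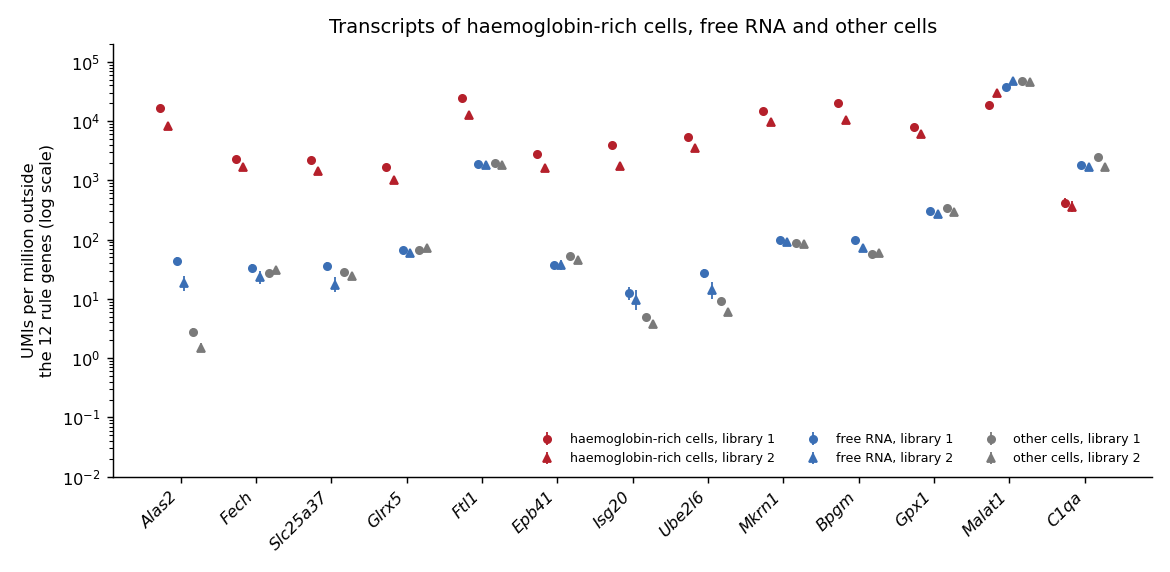
UMIs per 1000000 outside the 12 rule genes (log scale) of 13 listed transcripts in haemoglobin-rich cells, free RNA and other cells, with circles for library 1, triangles for library 2 and exact Poisson 95% intervals as bars. From Alas2 to Gpx1 the red symbols lie above the others, while C1qa lies below free RNA.

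Malat1, which stays in the nucleus, had a median of 1 UMI per cell in both libraries, against 288 and 260 UMIs in other cells. At full depth, 70.2% and 79.1% of cells of the group held a Malat1 UMI, against 99.7% of microglia-marked barcodes in each library. Thinned to 1000 UMIs, the shares were 25.2% and 30.8%, against 99.4% and 99.5%. The 1000 UMIs include globin, so few others remain in a cell of the group after thinning. Over the whole group it stood at 18875 and 29312 CPM against 37752 and 47664 CPM in free RNA and did not pass (edgeR adjusted p 0.823). Most of these UMIs came from the few cells with 500 genes or more. In cells under 500 genes Malat1 stood at 4254 and 3943 CPM, and it was lower than free RNA (log2 difference -2.28, edgeR adjusted p 0.00293).

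Markers of other cell types are given as values, since the rule limited 8 of their genes and lists that go with those genes are not independent of it. Of the neutrophil list, 1 and 0 UMIs were found in all cells of the group, and of the T and NK cell list 1 and 0. The neutrophil genes S100a8 and S100a9, named after their values were seen and at 20.5 and 28.5 CPM in the free RNA of library 1, had 0 and 1 UMIs there in the group. The microglia list summed to 9767 and 6458 CPM, against 23888 and 21438 CPM in free RNA, and the endothelium list to 1154 and 878 CPM, against 2867 and 2763 CPM. Against free RNA, 4 of 8 microglial genes were lower (among them Tmem119, C1qa and C1qc), 3 of 8 endothelial genes (Spock2, Ly6c1 and Itm2a) and 3 of 12 early response genes (Atf3, Fosb and Junb), with log2 differences from -2.35 to -1.63. In cells under 500 genes these counts were 1, 1 and 5, and with no UMI of any marker pair allowed they were 0, 0 and 1. The astroglia list, with no gene called, summed to 12015 and 9561 CPM against 12120 and 10412 CPM in free RNA. Cells with 10 or more of its UMIs (41 and 34) held 2613 of its 3645 UMIs and 1674 of its 2277. In cells under 500 genes the astroglia list still stood at 7665 and 7223 CPM and the microglia list at 8890 and 6364 CPM. The oligodendrocyte list in library 2 (9632 against 5266 CPM), the mural list in library 1 (1984 against 1056 CPM) and the fibroblast list in library 2 (395 against 46.7 CPM) were above free RNA, and in cells under 500 genes they stood at 2126, 235 and 14.1 CPM.

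Outside the lists, Zfp36, Klf2, Fcrls and Lgmn were lower than free RNA, with log2 differences of -2.30, -2.10, -1.86 and -1.63. In cells under 500 genes Zfp36 and Klf2 stayed lower at -1.41 and -1.16, while Fcrls (-0.89, edgeR adjusted p 0.133) and Lgmn (-0.91, edgeR adjusted p 0.0984) did not pass. With no marker UMI allowed none of the 4 passed (edgeR adjusted p 0.0509 to 0.236). Of the choroid plexus list, Ttr was lower (89.0 and 3527 CPM against 2153 and 20588 CPM in free RNA, edgeR adjusted p 0.0104, and 0.509 without the library as a block). Its level in the group was higher in library 2, as it was in free RNA and in other cells (586 and 29034 CPM). Vtn, a pericyte gene, was lower (26.4 and 16.8 CPM against 149 and 124 CPM, edgeR adjusted p 0.0344), but not in cells under 500 genes (log2 difference -1.02, edgeR adjusted p 0.342).

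Mitochondrially encoded transcripts behaved unlike globin. A cell held a median of 50 such UMIs in library 1 and 122.5 in library 2, and the number hardly moved with depth. From 1000 to 2000 total UMIs the medians were 46 and 120, and from 12000 UMIs upward 53 and 129. Barcodes with at least 500 and under 1000 UMIs that otherwise met the rule (105 and 46) had 48 and 119. Over the same range the median number of globin UMIs went from 1238 to 14007.5 in library 1 and from 1248 to 13640 in library 2. Malat1 stayed at a median of 1 or 2 UMIs in every depth range.

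Over cells under 500 genes, Spearman's rho between globin UMIs and mitochondrial UMIs was 0.06 in library 1 (775 cells) and -0.01 in library 2 (346 cells), and between globin and Malat1 UMIs 0.03 and 0.08. Between globin and Alas2 UMIs it was 0.85 and 0.84. The cells of a library share 1 suspension and the counts share each cell's capture depth, so these are descriptions. Mitochondrial UMIs made up 18.9% and 32.3% of the non-globin UMIs of these cells, against 23.8% and 26.0% in free RNA and 4.91% and 6.20% in other cells, while Malat1 made up 0.425% and 0.394%, against 3.77% and 4.76% in free RNA. The mitochondrial share was thus below that of free RNA in library 1 and above it in library 2, and the Malat1 share was below it in both. Where the mitochondrial UMIs of these cells come from was not tested.

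**Figure D3:**
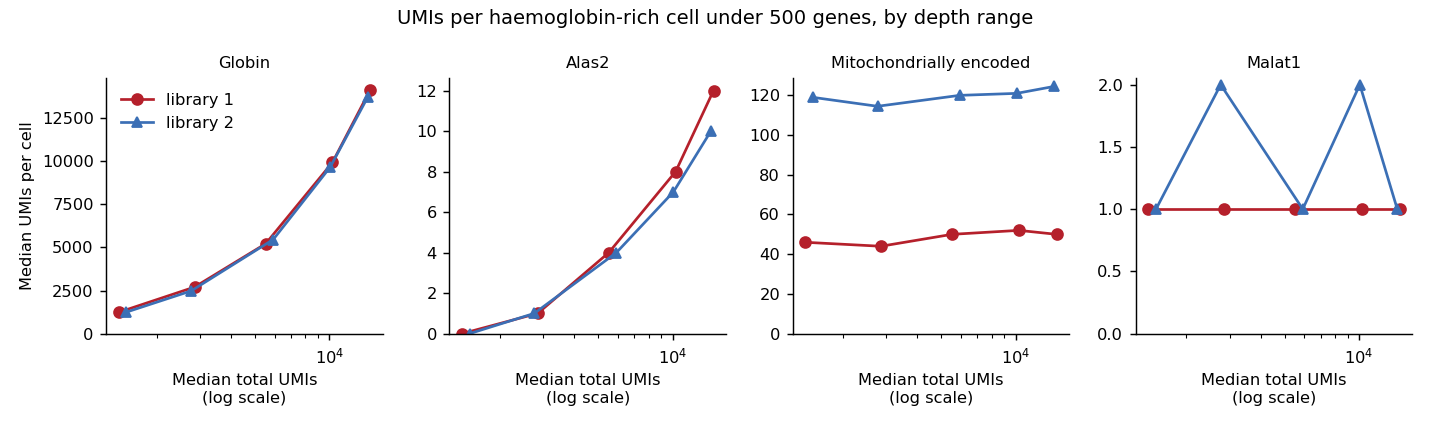
Median UMIs per haemoglobin-rich cell under 500 genes (linear scale from 0) of globin, Alas2, mitochondrially encoded genes and Malat1, against the median total UMIs (log scale) of 5 depth ranges, by library. Globin and Alas2 climb with depth, mitochondrial UMIs stay near 50 in library 1 and 120 in library 2, and Malat1 stays at 1 or 2.

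The share of Hbb-bt among the adult β-globin transcripts varied from cell to cell and rose with depth. In single cells it ran from 0% to 30.5% in library 1 (median 8.42%) and from 0% to 29.2% in library 2 (median 7.46%). Summed over cells of 1000 to 2000, 2000 to 4000, 4000 to 8000, 8000 to 12000 and at least 12000 UMIs, it was 2.34%, 3.43%, 7.14%, 13.7% and 19.5% in library 1. In library 2 it was 1.83%, 3.14%, 6.38%, 12.9% and 19.4%. The order was the same in both libraries and the values were within 1 percentage point of each other. In the barcodes of 500 to under 1000 UMIs the medians were 1.56% and 1.20%.

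Spearman's rho between total UMIs and the Hbb-bt share was 0.85 (775 cells) and 0.89 (346 cells) in cells under 500 genes. The share of Hba-a1 among α-globin transcripts moved less, from 56.3% in the lowest to 54.7% in the highest depth range of library 1 and from 59.8% to 57.3% in library 2, and the α share of globin from 46.4% to 41.8% and from 48.4% to 42.2%. Free RNA had an Hbb-bt share of 15.2% in both libraries, against 14.8% for the group summed, and other cells had 9.77% and 7.33%.

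**Figure D4:**
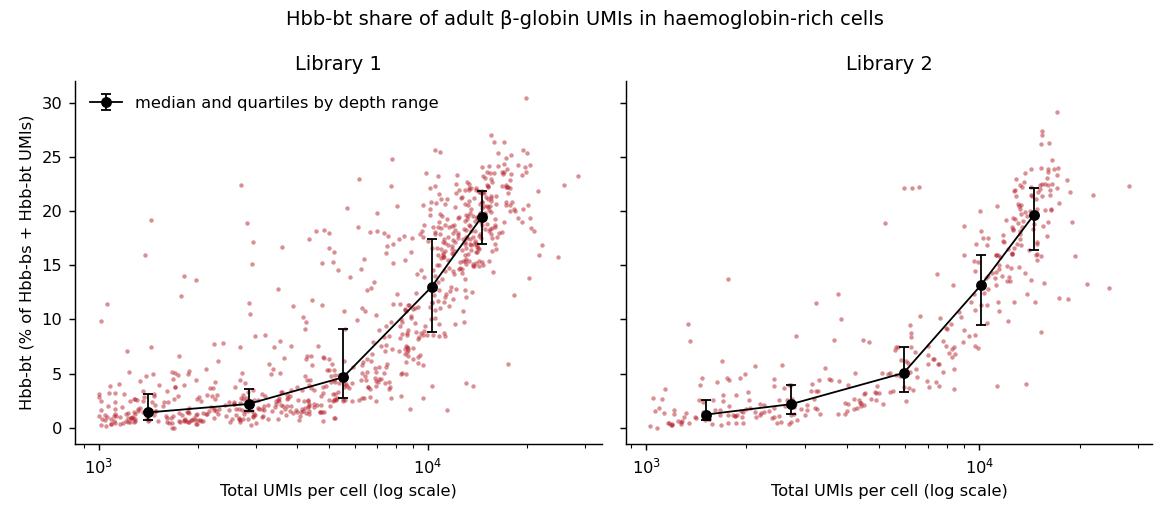
Hbb-bt as a percentage of Hbb-bs and Hbb-bt UMIs against total UMIs (log scale) for each haemoglobin-rich cell, by library, with black points and bars for the median and quartiles of 5 depth ranges. Both libraries climb from medians under 2% to medians near 20%.

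Cells under 500 genes were then parted by this share into under 5% (313 and 147 cells), 5% to 15% (186 and 91) and 15% or more (276 and 108), and other transcripts were counted per 10000 globin UMIs. Genes named from here on outside the naming rule were chosen after their values were seen. Bpgm stood at 1.30, 4.76 and 14.7 per 10000 globin UMIs from the lowest to the highest group of library 1 and at 1.15, 4.93 and 13.9 in library 2. Mkrn1 stood at 0.604, 3.81 and 10.98, and at 0.995, 6.37 and 11.7. Gpx1 had the largest ratio among listed genes with over 3 UMIs in both outer groups of each library, from 0.110 to 6.16 (10 and 2169 UMIs) and from 0.236 to 7.88 (9 and 1115 UMIs).

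Haem and iron genes differed among themselves. Alas2 went from 6.20 to 8.998 per 10000 globin UMIs in library 1 and from 6.39 to 7.81 in library 2, and Fech from 0.813 to 1.38 and from 0.759 to 1.73. Ftl1 stood at 13.0 and 12.3 in library 1 and at 11.8 and 10.3 in library 2, with overlapping 95% intervals in both. Glrx5 had a wider range, with 2 and 459 UMIs in the outer groups of library 1 (0.0220 and 1.30 per 10000 globin UMIs) and 4 and 178 in library 2 (0.105 and 1.26). Fam210b had 1 UMI in the lowest group of each library and 124 and 38 in the highest. Slc4a1 had no UMI in the lowest group of either library and 111 and 45 UMIs in the highest.

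Of the 39 genes of the 6 erythroid lists with at least 40 UMIs in these cells, 26 were higher in the highest than in the lowest group, with 95% intervals apart in both libraries, and 1 was lower. Over all 581 genes with that many UMIs, 11.7% were higher and 35.8% lower. The 26 included all 11 genes of metabolism and redox, all 3 of haem synthesis, 9 of 13 of organelle clearance, 2 of 6 of the membrane and 1 of 5 of iron. The polyubiquitin gene Ubb was higher (5.92 to 12.7 and 6.75 to 10.2). A gene with few UMIs anywhere did not enter this count. A constant number per cell gives a lower value on this scale where globin is higher. Malat1 stood at 4.30 and 1.07 and at 6.12 and 1.21 per 10000 globin UMIs, at a mean of 1.25 and 1.36 UMIs per cell in library 1 and 1.59 and 1.58 in library 2.

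**Figure D5:**
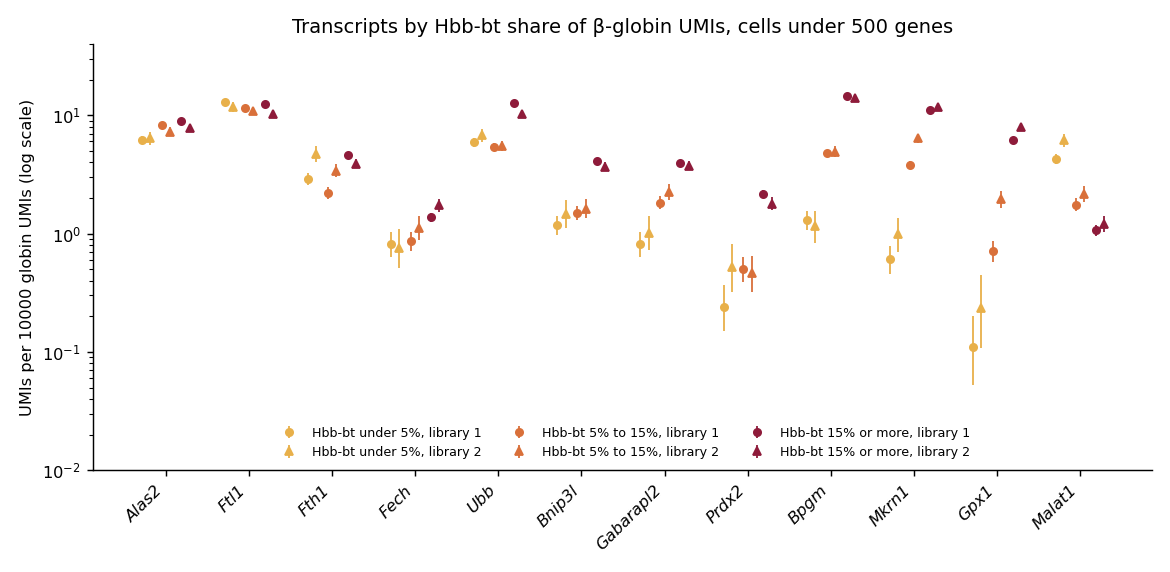
UMIs per 10000 globin UMIs (log scale) of 12 transcripts in haemoglobin-rich cells under 500 genes, parted by the Hbb-bt share of β-globin UMIs, with circles for library 1, triangles for library 2 and exact Poisson 95% intervals as bars. Bpgm, Mkrn1 and Gpx1 climb with the share in both libraries, Ftl1 stays near 12, and Malat1 descends.

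The pattern was also seen among cells of like depth. Between 4000 and 8000 total UMIs, library 1 had 87 cells with an Hbb-bt share under 5% and 23 with 15% or more, with median totals of 5195 and 6399 UMIs. Bpgm stood at 1.503 (95% interval 1.16 to 1.91) and 12.8 (10.98 to 14.8) per 10000 globin UMIs in them, Mkrn1 at 0.718 and 7.81, Alas2 at 6.98 and 13.2, and Ftl1 at 13.7 and 12.1. Library 2 had 33 and only 4 such cells, with Bpgm at 1.67 and 11.6. Between 8000 and 12000 UMIs, Bpgm stood at 4.98 in the 81 cells of 5% to 15% and at 12.1 in the 64 of 15% or more in library 1. In library 2 it stood at 5.05 (34 cells, 95% interval 4.30 to 5.89) and 7.67 (18 cells, 6.46 to 9.05), the smallest step of these windows. Between 12000 and 16000 UMIs, Bpgm stood at 8.21 in the 17 cells of 5% to 15% and at 14.6 in the 126 of 15% or more in library 1, and at 9.19 (12 cells) and 14.5 (65 cells) in library 2. Depth and the Hbb-bt share go together in these cells, and the part of each was not tested further. Cells of 1 library are not replicates, so these intervals cover counting error only.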

How the data were processed

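Single cells of the dentate gyrus were profiled with the 10x Genomics 3′ v3.1 droplet assay, per the labels' protocols. The authors deposited 1 unfiltered matrix of whole-number counts (UMIs of each gene in each barcode), without normalization as far as its values show. Cell Ranger 4.0.0 with build mm10 and Scanpy 1.7.0 are named in the submitters' processing notes. No step against doublets was run here, since the marker limits are part of the rule. The members, gene lists and tests were chosen with earlier results of these data known, and the alternative of cells under 500 genes was chosen after seeing the data.

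Counts were summed per library without the 12 rule genes and compared by edgeR 4.0.16 under R 4.3.3 (low counts removed by filterByExpr, scaling by TMM, quasi-likelihood, library as block, Benjamini-Hochberg, threshold 0.05). The 2 libraries leave 1 residual degree of freedom. DESeq2 1.42.0 was an alternative. The fit was also run on simulated data, which varied less between libraries than these data, so that run does not measure its error here. SEs come from the F statistic. The rule named all haem synthesis genes, up to 5 called genes of each other list, and outside the lists the 12 with the largest rise above both references and up to 6 with the largest fall (4 met the rule). Some genes that met it are not reported here. Of 231 list entries 228 were found in the files. CPM intervals are exact Poisson and shares exact Clopper-Pearson, at 95%, for counting error only. Gene positions are GENCODE M21 (GRCm38), promoters RefSeq GRCm38.p6, with all 5 searched genes matched, and windows were aligned with Biopython 1.88.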

Additional observations from a re-analysis of the deposited data

How the results depend on the processing

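Counts of genes depended on the setting more than directions did. Against free RNA, the 213 higher genes became 359 with free RNA taken under 50 UMIs, 425 with a globin minimum of 20%, 347 with one of 50%, and 373 in cells under 500 genes. The 48 lower genes became 181 with a minimum of 2000 UMIs, 301 with free RNA under 50 UMIs, 383 and 104 with the globin minimum at 20% and 50%, 5 with no marker UMI allowed, 76 in cells under 500 genes, 296 without the filter on low counts and 680 with total counts. Against other cells, the 267 higher genes became 479 at 20% globin, 442 in cells under 500 genes and 154 without the replicate block (the library term). The 199 lower genes became 97 with DESeq2, 128 at 2000 UMIs, 715 at 20% globin, 24 with no marker UMI, 10 without the block and 2470 with total counts. The lower calls are thus not stable. No fold change of a named gene reversed its direction under an alternative where either value was called. The Hbb-bt share of 14.8% stood at 14.8% with 50% globin, no marker UMI, cells under 500 genes or 20% globin, and at 15.1% with 2000 UMIs. Each library alone gave median mitochondrial UMIs of 50 to 122.5 (67 over both). Libraries alone leave no residual degree of freedom, so no count of calls exists there. Of the named genes, leaving out the block ended 7 calls against free RNA and 17 against other cells, allowing no marker UMI ended 16 of each, cells under 500 genes ended 11 and 6, and a globin minimum of 50% ended 6 against other cells. No paired analysis by mouse was possible because each library pools its mice. Precision is limited by 2 libraries and by the 303360 and 238161 UMIs of the group outside the rule genes.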
